A study of Mus musculus with 6 samples.

Results

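The 10 genes described here encode the core of the Notch pathway as it is used in the developing cortex. They are the receptors *Notch1*, *Notch2* and *Notch3*, the ligands *Dll1*, *Dll3*, *Jag1* and *Jag2*, the fringe glycosyltransferases *Lfng* and *Mfng*, and *Rbpj*, which encodes the DNA-binding protein through which the receptors act. They were taken by gene symbol from a list drawn up with earlier results of these data known, and each symbol has 1 of the 59484 features of the expression table, of which 23505 carry a symbol. The table comes from polyA+ RNA of whole cortex at embryonic day 18.5 (E18.5), sequenced in 3 wild-type embryos and in 3 embryos knocked out for both *Sam68* (*Khdrbs1*) and *Slm2* (*Khdrbs3*), here called dKO. Both genes encode STAR family RNA-binding proteins that control alternative splicing. The mice were C57BL/6 and no agent was given. The knockouts are of the whole animal and not restricted to a cell type, and dKO animals were bred by intercrossing *Sam68*+/-:*Slm2*-/- mice, a mating that gives no wild-type littermates, so genotype and litter cannot be told apart. The labels name a cortex per library and nothing on litter or sex, so a p-value measures the spread between these libraries only.

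Notch signalling passes between touching cells. A ligand of the Delta-like or Jagged type on one cell binds a Notch receptor on its neighbour, an ADAM protease and then gamma-secretase cut the receptor, and the freed intracellular domain joins RBPJ and Mastermind proteins to switch on genes such as *Hes1* and *Hes5*. Fringe enzymes add sugars to the extracellular part of the receptor and so change which ligands it responds to. In the cortex the pathway is known for keeping radial glia, the neural stem cells, from differentiating, while newborn neurons and intermediate progenitors present Delta-like ligands to them. *Notch3* is also a gene of mural cells, which wrap blood vessels, and *Jag1*, *Dll4* and *Notch4* are used by endothelial cells.

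Values are normalized counts, that is, reads on a gene divided by a size factor of the library. The libraries hold between 31837922 and 40896541 reads on the listed features. *Khdrbs1* had a log2 fold change (dKO minus wild-type) of -5.78 and *Khdrbs3* of -1.05, with no overlap between the genotypes for either gene. *Khdrbs3* kept 6652 ± 366 normalized counts in dKO against 13841 ± 1252 in wild-type libraries (SD, n = 3 each). Both genes were lower in the libraries labelled dKO. A whole-gene count does not show which exons of *Khdrbs3* were removed or whether the remaining RNA makes protein. The paper reports from western blots that both proteins were absent from the cortex of dKO mice taken after birth. Replicate 1 of each genotype stood apart from the others. In these 2 libraries long genes had higher values than the average over libraries (Spearman's rho over genes between deviation and exon length 0.22 in wild-type and 0.31 in dKO), and in the other 4 libraries rho lay between -0.22 and -0.10. Results are therefore also given without them. Because whole cortex was sequenced, fewer cells of a type and less RNA per cell cannot be told apart.

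RBPJ binds the letters GTGGGAA, and promoter sequence places the members and the target genes of the pathway beside each other. RefSeq windows of GRCm38.p6, from 250 bases before to 50 bases after a start site, were searched for these letters on both strands. Among 32851 windows of this length, 6.38% held the letters at least once and 0.256% held them 2 or more times. Windows were found for 9 of the 10 members, 11 in all, and not for *Mfng*. Only *Lfng* held the letters, once, at position -109 from its start site. Of the target genes, *Hes5*, *Hey2* and *Nrarp* have a window. *Hes5* and *Hey2* held the letters 2 times each, once on either strand, and *Nrarp* did not hold them. The 3 windows with a match are shown 5′ to 3′ along the gene, with GTGGGAA or its reverse complement TTCCCAC in capitals.
*Lfng* (chr5:140607091-140607390, plus strand): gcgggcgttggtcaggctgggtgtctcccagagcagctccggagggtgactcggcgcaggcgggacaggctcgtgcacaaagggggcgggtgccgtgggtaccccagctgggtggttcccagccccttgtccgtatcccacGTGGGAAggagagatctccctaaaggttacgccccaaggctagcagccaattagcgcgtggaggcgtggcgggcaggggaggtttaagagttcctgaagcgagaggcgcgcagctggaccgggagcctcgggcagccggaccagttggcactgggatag
*Hes5* (chr4:154960673-154960972, plus strand): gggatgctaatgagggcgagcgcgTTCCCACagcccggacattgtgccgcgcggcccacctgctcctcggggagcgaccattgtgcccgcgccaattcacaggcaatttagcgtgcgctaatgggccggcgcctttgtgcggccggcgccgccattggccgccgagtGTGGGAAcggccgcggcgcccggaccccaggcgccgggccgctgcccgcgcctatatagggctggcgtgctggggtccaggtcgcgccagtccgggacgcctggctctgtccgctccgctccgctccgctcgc
*Hey2* (chr10:30842734-30843033, minus strand): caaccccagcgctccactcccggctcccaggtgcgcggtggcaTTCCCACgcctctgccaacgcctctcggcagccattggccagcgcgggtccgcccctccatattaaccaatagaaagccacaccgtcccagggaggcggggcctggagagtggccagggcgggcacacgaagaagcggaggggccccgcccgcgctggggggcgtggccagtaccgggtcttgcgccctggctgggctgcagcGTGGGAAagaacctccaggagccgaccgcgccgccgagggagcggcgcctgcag
Counted from the start site, the matches begin at -226 and -83 in *Hes5* and at -207 and -4 in *Hey2*. A match of these letters is a description of the window. The absence of one says only that the letters are not in it. The window of *Notch1* and both windows of *Rbpj* lie at inner start sites of these genes as annotated in GENCODE. Other members, among them *Dll3* and *Dll1* (window from 15375774 to 15376073), have window start sites inside the annotated gene at shorter distances from its outer end.

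Between the genotypes, 0 of the 10 genes passed an adjusted p of 0.05 in limma, against 0.10% of the 18970 features tested. The count was also 0 with edgeR, which called 0.10% of all features, and with DESeq2, which called 1.06%. All 10 genes were tested, that is, had a mean of at least 10 normalized counts. At an unadjusted p under 0.05, 2 of 10 passed in limma (*Mfng* and *Rbpj*, both higher in dKO), against 11.5% of all features, of which 4.92% were higher and 6.58% lower. edgeR and DESeq2 also gave 2 of 10, with 11.7% and 11.6% of all features. The genotypes did not overlap for 1 gene of 10 (*Mfng*), against 16.4% of all features, 7.89% with dKO higher and 8.48% with dKO lower. The fold change was above 0 for 6 of 10 genes and for 50.6% of all features. The median log2 fold change was 0.07 over the members and 0.00 over all features. On these counts the Notch genes stood close to the background of the table.

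**Figure D1:**
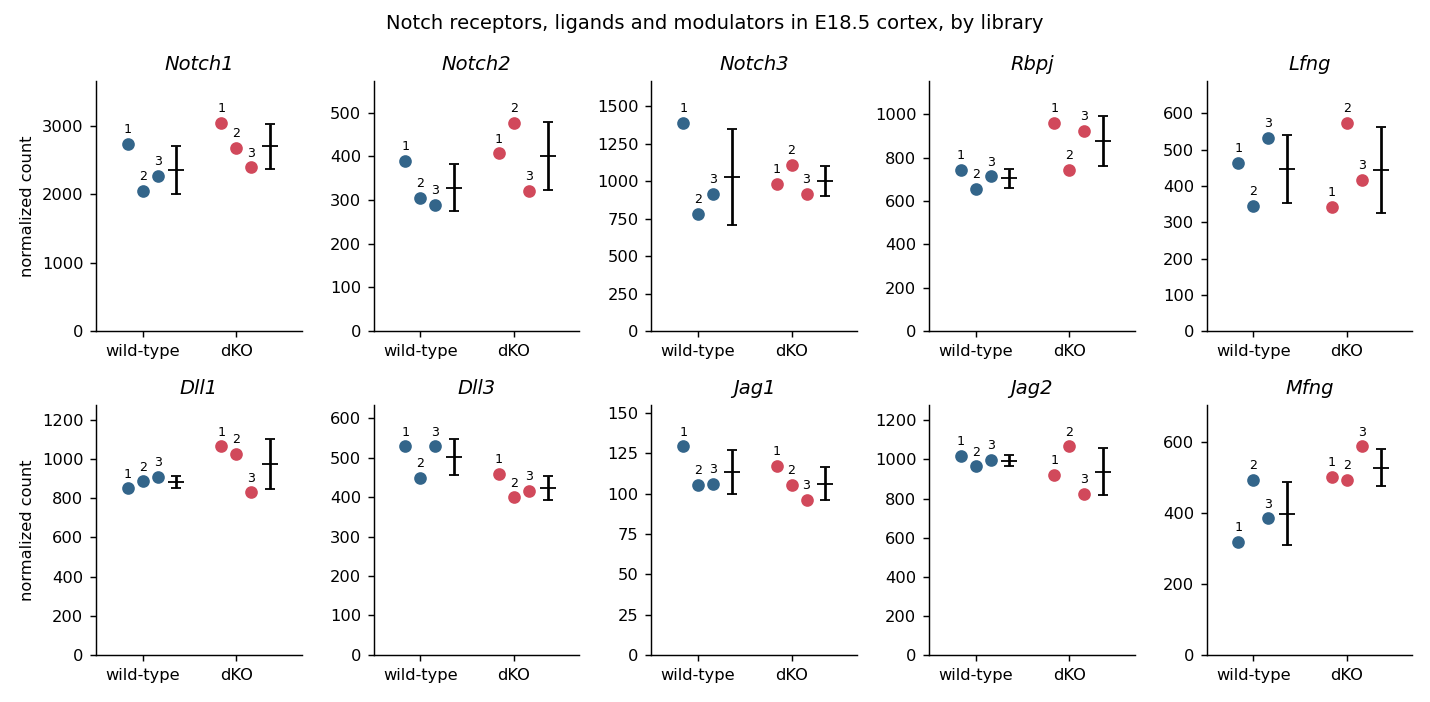
Normalized counts of the 10 Notch genes in each library, with linear axes from 0. Points are single cortices, numbered by replicate (blue, wild-type; red, dKO), and the black bar is the mean with the SD of 3. Only in *Mfng* do all 3 dKO points lie above all 3 wild-type points, by less than 1 normalized count.

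*Notch1* (GSMG0022566 in the FAST database, mm10 chromosome 2 from 26457182 to 26516663, minus strand), the main receptor of radial glia, had 2732, 2053 and 2271 normalized counts in wild-type replicates 1 to 3 and 3045, 2672 and 2393 in the dKO replicates. Replicates 2 and 3 of dKO lay below wild-type replicate 1, so the genotypes overlapped. The means were 2352 ± 347 and 2703 ± 327 (SD, n = 3 each), a ratio of 1.15. The log2 fold change was 0.20 with a standard error (SE) of 0.12 and a 95% confidence interval from -0.06 to 0.47 (adjusted p = 0.533, limma).

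*Notch2* (GSMG0024709, chromosome 3 from 98013526 to 98150367, plus strand), a second receptor of radial glia, had 390, 305 and 289 normalized counts in wild-type and 407, 477 and 321 in dKO libraries. Wild-type replicate 1 lay inside the dKO range and the other wild-type libraries below it. This is a log2 fold change of 0.28 (SE 0.17, interval from -0.10 to 0.67, limma adjusted p = 0.549). *Notch3* (GSMG0017366, chromosome 17 from 32120893 to 32166852, minus strand) had 1390, 781 and 914 normalized counts in wild-type and 982, 1108 and 914 in dKO libraries. The highest and the lowest of the 6 values were both in wild-type libraries, with all dKO values between them. Its log2 fold change was 0.00 (SE 0.19, interval from -0.42 to 0.42, limma adjusted p = 0.998). As a ratio the interval runs from 0.748 to 1.34, so that a change of either sign within it was not detectable with this number of libraries.

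Wild-type replicate 1 had the highest wild-type value of all 3 receptors, and it decided how far they overlapped. Without that library the dKO values of *Notch1*, *Notch2* and *Notch3* all lay above the wild-type values, for *Notch3* by 913.96 against 913.52, and with *Mfng* and *Rbpj* the members with no overlap numbered 5 of 10. The same count over all features then was 26.6%, since fewer libraries overlap less often. *Notch1* had a log2 fold change of 0.32 without that library and ranged from 0.11 to 0.32 over the libraries left out in turn. That of *Notch2* ranged from 0.15 to 0.44 and that of *Notch3* from -0.17 to 0.24. *Notch1* and *Notch2* thus stayed positive with every single library left out, and *Notch3* did not.

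Among the ligands, *Dll1* (GSMG0017147, chromosome 17 from 15367355 to 15375823, minus strand), the main Delta-like ligand of the cortical germinal zone, had 849, 885 and 908 normalized counts in wild-type and 1064, 1027 and 829 in dKO libraries. Replicates 1 and 2 of dKO lay above and replicate 3 lay below all wild-type values. On the log2 scale the difference was 0.14 (SE 0.11, interval from -0.11 to 0.38, limma adjusted p = 0.651), and it was 0.25 without dKO replicate 3. An unnamed feature that overlaps the start of *Dll1* by 819 bases had between 177 and 191 normalized counts in the 6 libraries. Whether the counting used strand is not given in the sources used here.

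*Dll3* (GSMG0035691, chromosome 7 from 28293555 to 28301789, minus strand) encodes a divergent Delta-like protein that does not activate Notch on neighbouring cells. It had 529, 448 and 529 normalized counts in wild-type and 458, 399 and 415 in dKO libraries. Only wild-type replicate 2 lay inside the dKO range. The means were 502 ± 46.7 and 424 ± 30.4 (SD, n = 3 each), a ratio of 0.846. This gave a log2 fold change of -0.24 (SE 0.12, interval from -0.51 to 0.03, limma adjusted p = 0.485), which ran from -0.32 to -0.20 as single libraries were left out. It was the member with the lowest fold change.

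*Jag1* (GSMG0023603, chromosome 2 from 137081451 to 137116523, minus strand) had 129, 105 and 106 normalized counts in wild-type and 117, 106 and 96.3 in dKO libraries, with both genotypes spread over the same values. *Jag1* had a log2 fold change of -0.09 (SE 0.20, interval from -0.53 to 0.35, limma adjusted p = 0.876). *Jag2* (GSMG0009357, chromosome 12 from 112907822 to 112929496, minus strand) had 1020, 965 and 996 normalized counts in wild-type and 920, 1067 and 826 in dKO libraries. All 3 wild-type values lay inside the dKO range. The log2 fold change was -0.09 (SE 0.11, interval from -0.33 to 0.15, limma adjusted p = 0.765). An unnamed feature that covers the whole of *Jag2* and extends far beyond it had 59.0 to 141 normalized counts.

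*Lfng* (GSMG0029988, chromosome 5 from 140607320 to 140615543, plus strand), which encodes Lunatic fringe and holds the letters bound by RBPJ in the window shown above, had 464, 346 and 531 normalized counts in wild-type and 343, 574 and 416 in dKO libraries. The dKO libraries held both the lowest and the highest value. *Lfng* had a log2 fold change of -0.02 (SE 0.21, interval from -0.48 to 0.44, limma adjusted p = 0.978), and it lay between -0.22 and 0.15 over the libraries left out in turn. The genotypes could not be told apart for this gene.

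*Mfng* (GSMG0014224, chromosome 15 from 78755882 to 78773477, minus strand), which encodes Manic fringe, had the largest fold change of the 10 genes. It had 319, 493 and 385 normalized counts in wild-type and 502, 494 and 588 in dKO libraries. The highest wild-type value (493.0) and the lowest dKO value (493.6), both of replicate 2, differed by less than the value of 1 read. The means were 399 ± 88.0 and 528 ± 52.3 (SD, n = 3 each), a ratio of 1.32. The log2 fold change was 0.42 with an SE of 0.16 and an interval from 0.06 to 0.78 (unadjusted p = 0.026, adjusted p = 0.390, limma), and the exact two-sided permutation test gave 0.1, the smallest value that 3 against 3 allow. The fold change stayed above 0 in all 20 alternative settings, between 0.27 and 0.59, with adjusted p from 0.151 to 0.781. The unadjusted p was 0.106 without wild-type replicate 1, 0.056 without wild-type replicate 3 and 0.095 without dKO replicate 3. *Mfng* lies on the chromosome of *Khdrbs3*, 9.65 Mb away, and linkage to the targeted allele was not tested.

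*Rbpj* (GSMG0051033, chromosome 5 from 53555706 to 53657445, plus strand) encodes the protein that binds DNA for all Notch receptors and holds target genes off in their absence. It had 743.7, 654.1 and 712.8 normalized counts in wild-type and 960.1, 743.5 and 920.9 in dKO libraries. Replicates 1 and 3 of dKO lay above all wild-type values, and dKO replicate 2 lay just under wild-type replicate 1. The means were 704 ± 45.5 and 875 ± 115 (SD, n = 3 each), a ratio of 1.24. The log2 fold change was 0.31 with an SE of 0.12 and an interval from 0.04 to 0.57 (unadjusted p = 0.027, adjusted p = 0.393, limma), and the exact two-sided permutation test gave 0.2. Over the 20 alternative settings it lay between 0.24 and 0.42, with adjusted p from 0.266 to 0.780. The unadjusted p was 0.085 without wild-type replicate 2, 0.0996 without dKO replicate 1 and 0.089 without dKO replicate 3. A processed copy on chromosome 6, *Rbpj-ps3*, shares a stretch of 638 bases with *Rbpj*, so that reads could be split between them. The feature that overlaps that copy had 122 to 158 normalized counts, with the lowest and the highest value both in dKO libraries.

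Without replicate 1 of both genotypes, neither *Mfng* (0.31, unadjusted p = 0.110) nor *Rbpj* (0.28, unadjusted p = 0.080) passed an unadjusted p of 0.05 in limma, and *Notch1* did (0.23, unadjusted p = 0.044, adjusted p = 0.521, where the lowest over its alternatives was 0.386). On the 4 libraries left, the genotypes did not overlap for 6 of 10 members, *Notch1*, *Notch2*, *Notch3*, *Mfng* and *Rbpj* with dKO higher and *Dll3* with dKO lower. With 2 libraries against 2, 41.1% of all features did not overlap either. With a single library left out, the members with no overlap numbered 5 without wild-type replicate 1, 2 without wild-type replicate 2, 1 without wild-type replicate 3, 2 without dKO replicate 1, 3 without dKO replicate 2 and 3 without dKO replicate 3. Among all features the shares were 26.6%, 33.0%, 23.0%, 29.5%, 30.2% and 22.3% in that order. The identity of the genes that separated the genotypes therefore depended on which cortices were compared.

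**Figure D2:**
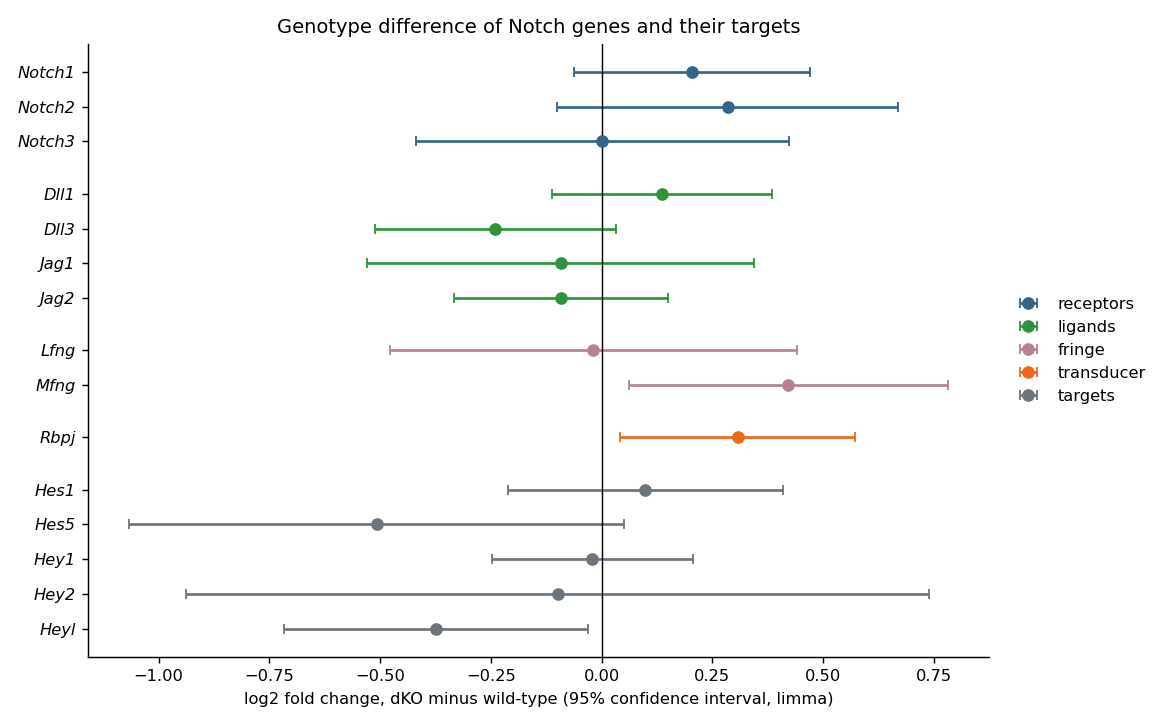
Log2 fold change of dKO minus wild-type with its 95% confidence interval from limma, for the 10 Notch genes by role and for 5 target genes of the pathway. The intervals of *Mfng*, *Rbpj* and *Heyl* lie on one side of 0 before adjustment, and the adjusted p of each is 0.390 or higher.

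The level of a gene was compared with that of another only per kilobase of exon, that is, as the normalized count divided by the summed length of its annotated exons. On this scale *Dll1* had the highest level in wild-type cortex, 209 ± 7.04 (SD, n = 3). It was followed by *Lfng* with 178 ± 37.5, *Dll3* with 176 ± 16.4, *Notch1* with 165 ± 24.4, *Jag2* with 143 ± 3.96, *Mfng* with 140 ± 31.0 and *Notch3* with 127 ± 39.6. The wild-type values of each neighbouring pair in this order overlapped. Below them, with no overlap from one gene to the next, came *Rbpj* with 55.2 ± 3.57, *Notch2* with 30.4 ± 5.02 and *Jag1* with 19.5 ± 2.35. In dKO cortex *Dll1* stayed at the top (231 ± 29.9) and *Notch3*, *Rbpj*, *Notch2* and *Jag1* kept the last 4 places in the same order. *Mfng* moved from place 6 to place 3 with 186 ± 18.4, and *Dll3* from place 3 to place 5 with 149 ± 10.7, among genes whose wild-type values overlapped.

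The order of the upper genes rests on the length used. By the length of the longest annotated transcript, *Notch1* came first with 248 ± 36.6 and *Dll1* second with 246 ± 8.29 in wild-type cortex. *Rbpj*, whose annotated exons add up to 12750 bases against 5485 in its longest transcript, then had 128 ± 8.30 and stood beside *Notch3* with 128 ± 40.0. *Notch2* and *Jag1* kept the last places.

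**Figure D3:**
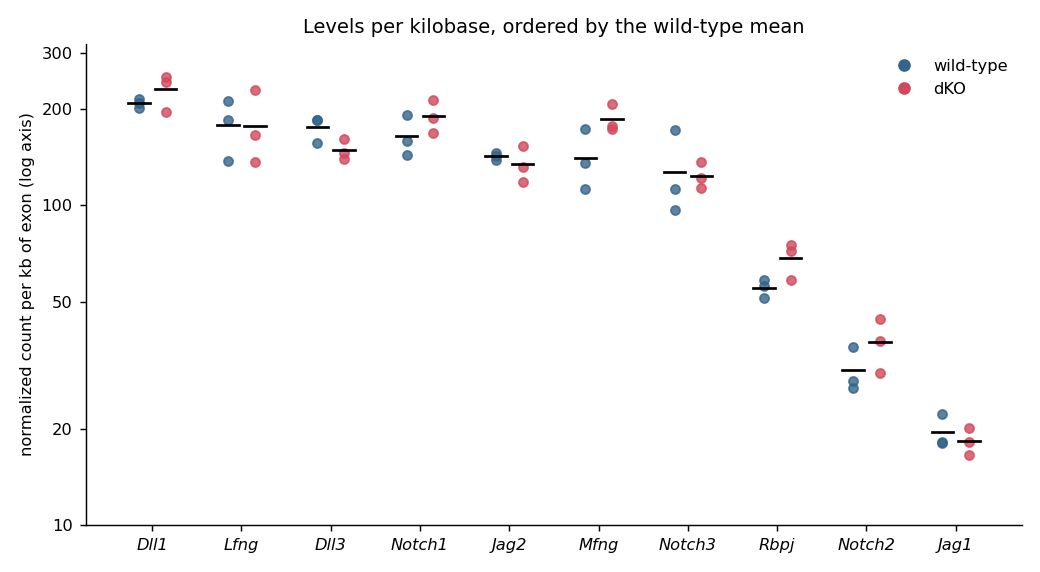
Normalized count per kilobase of exon of each Notch gene, on a log axis, ordered by the wild-type mean. Points are single libraries (blue, wild-type; red, dKO) and black lines are means. The 7 genes from *Dll1* to *Notch3* have overlapping neighbours, and *Rbpj*, *Notch2* and *Jag1* lie below them in both genotypes.

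Within each role, the share of each gene in the summed level per kilobase of exon was described without a test. *Notch4*, which is no member and whose feature extends far beyond the gene, was left out of the receptor shares. Among the other 3 receptors, *Notch1* made up 48.0%, 53.6% and 53.3% in wild-type libraries and 57.3%, 50.9% and 54.1% in dKO libraries. *Notch3* made up 38.9 ± 3.68% in wild-type and 35.3 ± 2.46% in dKO libraries, and *Notch2* 9.51 ± 0.874% and 10.6 ± 1.26% (SD, n = 3). The genotypes overlapped for each receptor.

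Among the 4 ligands, *Dll1* made up 36.2%, 40.1% and 38.3% in wild-type libraries and 44.6%, 43.9% and 41.2% in dKO libraries. Every dKO share lay above every wild-type share, with means of 38.2 ± 1.92% and 43.2 ± 1.81%, and this held by the length of the longest transcript as well (37.7 ± 1.83% and 42.6 ± 1.75%). The share of *Dll3* was 32.1 ± 1.85% in wild-type and 28.1 ± 2.65% in dKO libraries, which overlapped, and *Jag2* (26.1 ± 0.556% and 25.3 ± 2.14%) and *Jag1* (3.56 ± 0.391% and 3.43 ± 0.147%) also overlapped. The other 8 of the 9 shares in the 3 roles overlapped between the genotypes. Among all features 16.4% had levels that did not overlap, the counts of *Dll1* itself overlapped, and a share also moves with the other ligands, so nothing is read from this one. *Rfng*, the third fringe gene and no member, was measured at 1515 ± 57.5 normalized counts in wild-type libraries against 1405 ± 115 in dKO (SD, n = 3) and was left out of the fringe shares. Between the 2 fringe members, *Lfng* made up 62.3%, 44.3% and 61.0% in wild-type libraries and 43.7%, 56.9% and 44.5% in dKO libraries, with *Mfng* as the rest. Wild-type replicate 2 and dKO replicate 2 lay on the other genotype's side, so the fringe shares did not separate the genotypes.

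The target genes of the pathway were read as RNA of whole cortex, and Notch activity itself was not measured. *Hes1*, a repressor of neuronal differentiation, had 335, 388 and 459 normalized counts in wild-type and 396, 419 and 442 in dKO libraries (log2 fold change 0.10, SE 0.14, limma adjusted p = 0.807). *Hes5*, which acts beside *Hes1* in radial glia and whose promoter window is shown above, had 1052, 664 and 1383 normalized counts in wild-type and 722, 813 and 572 in dKO libraries. Only wild-type replicate 2 lay inside the dKO range.

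*Hes5* had a log2 fold change of -0.51 (SE 0.25, interval from -1.07 to 0.05, limma adjusted p = 0.473), the lowest of the 5 target genes. Its unadjusted p was 0.070 in limma, 0.048 in edgeR (adjusted p = 0.421) and 0.0094 in DESeq2 (adjusted p = 0.224). The fold change depended on the wild-type libraries, with -0.79 without wild-type replicate 2 (limma adjusted p = 0.109, where the adjusted p over all alternatives ran up to 0.821) and -0.27 without wild-type replicate 3. *Heyl*, a target gene of vascular mural cells, had 369, 301 and 397 normalized counts in wild-type and 240, 277 and 304 in dKO libraries, with an overlap between wild-type replicate 2 and dKO replicate 3. *Heyl* had a log2 fold change of -0.37 (SE 0.16, unadjusted p = 0.035, adjusted p = 0.401, limma), and it was -0.25 without replicate 1 of both genotypes (unadjusted p = 0.217).

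*Hey1* had 917, 770 and 903 normalized counts in wild-type and 836, 879 and 830 in dKO libraries, with a log2 fold change of -0.02. *Hey2*, whose window is also shown above, was low and uneven, with 145, 96.7 and 179 normalized counts in wild-type and 91.7, 238 and 92.8 in dKO libraries. Its log2 fold change of -0.10 had an SE of 0.37, and a single dKO library held the highest value. The expression of *Nrarp* was not analysed here. Of the 5 target genes, 1 had a positive and 4 a negative fold change, and 0 passed an adjusted p of 0.05 in limma, edgeR or DESeq2.

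Of 55 other genes of the pathway, the target genes included, 54 were analysed and all 54 were tested. In limma 0 passed an adjusted p of 0.05 (0.10% of all features). At an unadjusted p under 0.05, 5 of 54 or 9.26% passed, 1 higher and 4 lower in dKO, against 11.5% of all features. The genotypes did not overlap for 8 of 54 or 14.8%, against 16.4%. The median log2 fold change was 0.03. These limma counts, too, were close to the background. edgeR called 0 and DESeq2 called 2 at an adjusted p of 0.05, *Dlk1* and *Neurl1a*, against 0.10% and 1.06% of all features. They gave 7 and 8 genes at an unadjusted p under 0.05, against 11.7% and 11.6%.

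*Dlk1* encodes a non-canonical ligand that lacks the domain with which Delta-like ligands activate receptors. It had 482, 434 and 522 normalized counts in wild-type and 309, 374 and 300 in dKO libraries, with every dKO value below every wild-type value. On the log2 scale it differed by -0.55 (SE 0.14, unadjusted p = 0.002, adjusted p = 0.263, limma), and its adjusted p was 0.047 with DESeq2, the lowest of the alternatives, which reached 0.694. *Neurl1a*, which encodes a ubiquitin ligase for Notch ligands, had 370, 285 and 552 normalized counts in wild-type and 253, 232 and 211 in dKO libraries, again without overlap. Its log2 fold change was -0.74 (SE 0.22, unadjusted p = 0.006, adjusted p = 0.318, limma), with an adjusted p of 0.046 by DESeq2 and up to 0.739 over the alternatives. It was -0.96 without wild-type replicate 2 and -0.49 without wild-type replicate 3.

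The corepressor genes *Hdac1* and *Hdac2* encode paired histone deacetylases and stood on opposite sides. *Hdac1* had 1100, 1053 and 1021 normalized counts in wild-type and 861, 839 and 929 in dKO libraries (log2 fold change -0.27, unadjusted p = 0.014, adjusted p = 0.357, limma). *Hdac2* had 14813, 16219 and 14578 normalized counts in wild-type and 17869, 16430 and 17022 in dKO libraries (log2 fold change 0.17, unadjusted p = 0.047, adjusted p = 0.425, limma). The genotypes did not overlap for either gene.

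In the other groups no gene passed an unadjusted p of 0.05 in limma, and each group is represented by its largest fold change. *Pofut1*, whose product adds the fucose on which fringe enzymes build, had a log2 fold change of 0.15 and no overlap. *Aph1c*, for a gamma-secretase subunit, had -0.37, and its reads may be split with the near-identical *Aph1b*. *Dtx4*, for a regulator of receptor turnover, had -0.12, and *Kat2b*, for a coactivator, had 0.21 with no overlap. All 5 genes of the group of other receptors and ligands (*Notch4*, *Dll4*, *Dlk1*, *Dlk2* and *Dner*) had negative fold changes, and only *Dlk1* passed an unadjusted p of 0.05. The feature listed for *Notch4* begins 338042 bases before the gene in GENCODE, so it may hold reads from elsewhere. Of the 8 coactivator genes 7 were positive and of the 9 protease genes 8 were positive, with medians of 0.12 and 0.06. Among all features 50.6% were positive. The genotypes did not overlap for 3 of the 8 coactivator genes, *Kat2b* among them, and for 0 of the 9 protease genes, against 16.4% of all features.

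**Figure D4:**
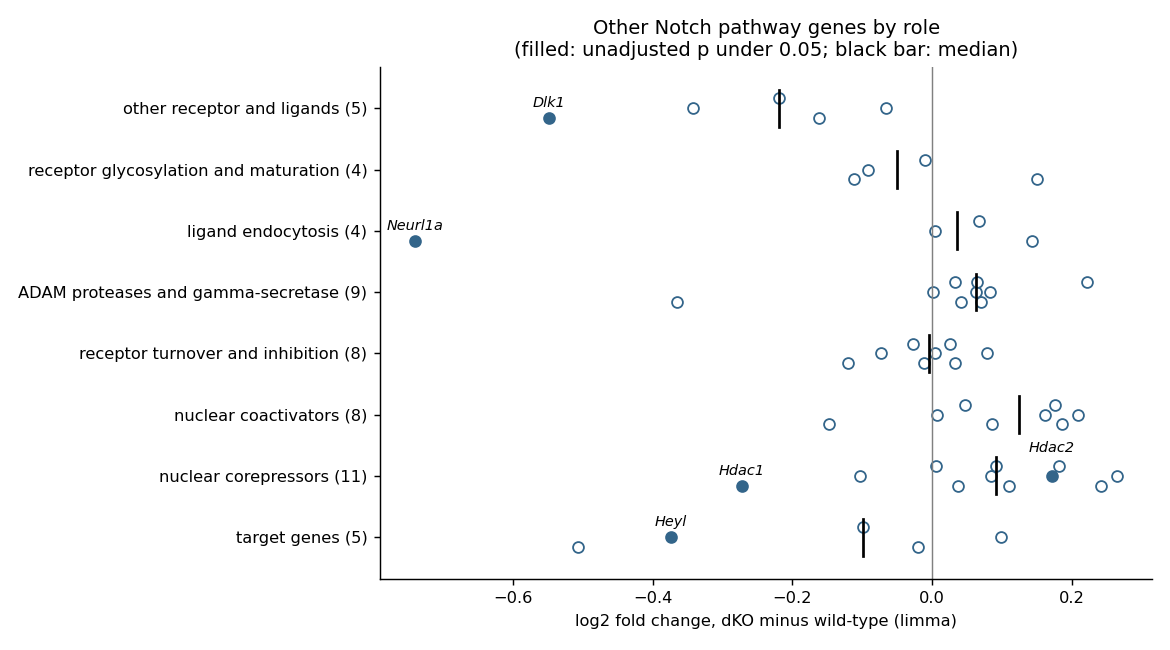
Log2 fold change of dKO minus wild-type for 54 other Notch pathway genes by role, with the number of genes in brackets. Each circle is a gene, filled where the unadjusted p from limma is under 0.05, and black bars are group medians. The 5 filled circles are named, and the group medians lie between -0.22 and 0.12.

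Notch genes are read from a mixture of cells, so the markers of those cells are given beside them. The cortex label held. Neuronal and radial glial markers were high, as were the intermediate progenitor markers other than *Neurog1*, which had 1.90 to 30.9 normalized counts. The 6 choroid plexus markers were low, with summed levels of 35.2 to 139 normalized counts in wild-type and 32.7 to 84.7 in dKO libraries and *Ttr* between 1.90 and 14.0. None of the marker lists had a gene past an adjusted p of 0.05 in limma. The following shares of all features apply to the counts here and in the next paragraph. In limma 11.5% had an unadjusted p under 0.05, 4.92% higher and 6.58% lower in dKO. The fold change was positive for 50.6%, and 16.4% had levels that did not overlap. All 6 intermediate progenitor markers had positive fold changes, and 5 of them passed an unadjusted p of 0.05 (*Eomes*, *Neurog2*, *Insm1*, *Gadd45g* and *Btg2*). Their summed level lay between 7882 and 10628 normalized counts in wild-type and between 11348 and 14543 in dKO libraries, a ratio of 1.41 with no overlap. The paper, in contrast, reports fewer cells stained for TBR2, the protein of *Eomes*, in dKO cortex at E18.5. It also reports fewer SOX2-stained progenitors there. Counts of stained cells and RNA of whole cortex are unlike measures, and the reason for the difference was not tested. Intermediate progenitors are known to present Delta-like ligands and to express *Mfng*. Projection neuron markers were positive in 8 of 8, 5 with an unadjusted p under 0.05, with sums of 265905 to 293622 in wild-type against 298403 to 342676 in dKO libraries. Without *Tubb3* the sums of the projection neuron markers overlap. Radial glia markers, which go with *Notch1*, *Notch2* and *Hes5*, had sums of 44495 to 54755 and 44971 to 56123, with 3 positive and 5 negative fold changes, 2 of them higher in dKO with an unadjusted p under 0.05 (*Vim* and *Pax6*, the latter with no overlap). The part of either cell type in the values of *Mfng*, *Rbpj*, *Dll1*, *Dll3* and *Hes5* was not tested.

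Vascular markers stood on the other side. All 6 mural cell markers were negative, 1 with an unadjusted p under 0.05 (*Rgs5*), with sums of 8015 to 9021 in wild-type against 6003 to 7713 in dKO libraries. Without *Rgs5* the mural sums overlap. All 8 endothelial markers were negative, 2 with an unadjusted p under 0.05 (*Kdr* and *Flt1*), with sums of 5786 to 7348 and 5464 to 6174. These values stand beside *Heyl*, *Notch4*, *Dll4*, *Notch3* and *Jag1*. The log2 fold changes of *Heyl*, *Notch4*, *Dll4* and *Jag1* were -0.37, -0.16, -0.22 and -0.09. That of *Notch3* was 0.00, and it ran from -0.17 to 0.24 as single libraries were left out. The genotypes overlapped for each of these genes. Oligodendrocyte lineage markers were negative in 4 of 4, 3 with an unadjusted p under 0.05, with sums of 6600 to 11467 and 3592 to 6205. Without *Olig1* the oligodendrocyte sums overlap. Astrocyte markers were negative in 4 of 4, 0 with an unadjusted p under 0.05, with sums of 1861 to 3471 and 1758 to 2700. Meningeal markers were negative in 4 of 4, 1 with an unadjusted p under 0.05 (*Dcn*, with no overlap), with sums of 273 to 924 and 272 to 338. Markers of interneurons (7088 to 9145 and 6568 to 8937), microglia (1640 to 2321 and 1710 to 2055) and erythroid cells (26359 to 34859 and 28794 to 38357) overlapped between the genotypes. The part of these cells in the Notch values was not tested.

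**Figure D5:**
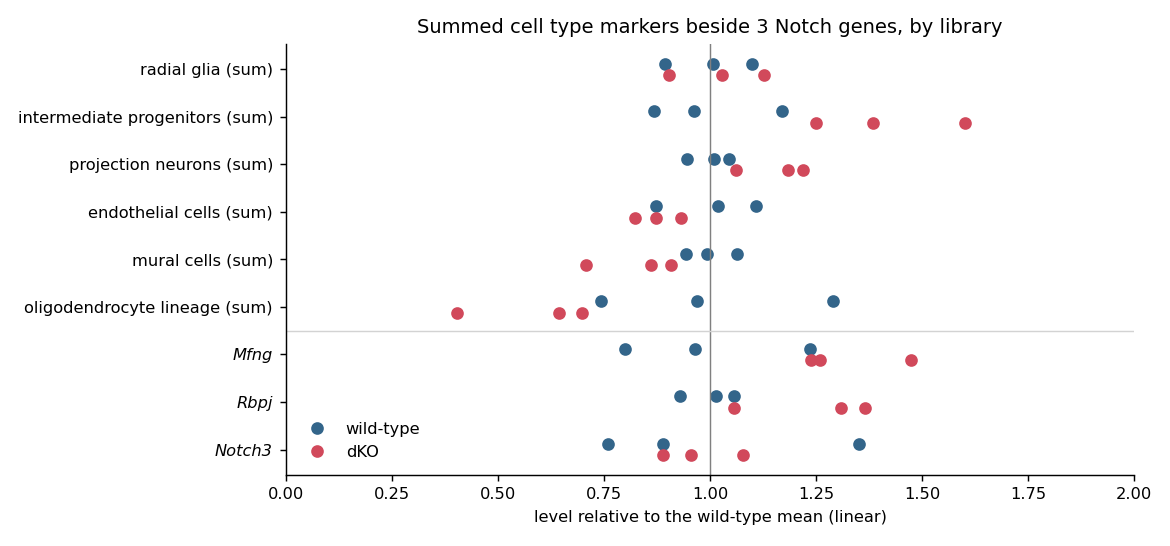
Summed level of the markers of 6 cell types, and the level of *Mfng*, *Rbpj* and *Notch3*, in each library as a multiple of the wild-type mean (blue, wild-type; red, dKO; linear axis from 0). The intermediate progenitor, projection neuron, mural and oligodendrocyte sums do not overlap between the genotypes, nor does *Mfng*. The radial glia and endothelial sums, *Notch3* and *Rbpj* do. A sum is weighted to its marker with the most counts, which is *Insm1*, *Tubb3*, *Rgs5* and *Olig1* in the sums without overlap, in that order. Once that marker is left out, the projection neuron, mural and oligodendrocyte sums overlap, and the intermediate progenitor sum does not. Of the single markers, 3 of 6, 2 of 8, 1 of 6 and 1 of 4 did not overlap, in the same order, against 16.4% of all features.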

How the data were processed

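RNA was extracted from E18.5 cortices of 3 wild-type and 3 dKO embryos, and TruSeq Stranded mRNA libraries were sequenced in a 150 bp paired-end format. The submitters' processing notes name the genome build mm10 and STAR 2.7.5a, FastQC, Picard, SAMtools and DESeq2. Genes are those of the FAST database. The counting program and its strand setting are not given in the sources used here. The authors deposited a signal per gene, in which each library's reads are scaled by its own size factor. Within each library 100% of the values were whole multiples of the value of 1 read (0.877 to 1.16, within 0.01 reads), so the reads were recovered.

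Genotypes were taken from the labels and compared with limma 3.58.1 (R 4.3.3, with its trend and robust options). The values entered as log2(normalized count + 1) for 18970 features whose mean was 10 or more, and p-values had Benjamini-Hochberg adjustment over all of them. Fold changes on this scale understate those of low genes. The recovered reads were tested with DESeq2 1.42.0 and with the quasi-likelihood test of edgeR 4.0.16. Other alternatives changed the pseudocount, the filter, the normalization, the limma options, a correction for exon length, the replicate block and the libraries used. The fit was tested on simulated counts. Exon lengths came from GENCODE M21 and promoter windows from RefSeq. The members and all gene lists were chosen with earlier results of these data known. Named are the members, the targeted genes, all target genes, and of each other pathway group the genes with an unadjusted p under 0.05 or else the one with the largest fold change at a mean of at least 50. Splicing was not analysed here.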

Additional observations from a re-analysis of the deposited data

How the results depend on the processing

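At an adjusted p of 0.05, 0 of the 10 members passed in every alternative run. At an unadjusted p under 0.05 the count of 2 members became 0 in limma without the trend and robust options and 1 without replicate 1 of both genotypes, and was 1 to 3 when single libraries were left out. At an unadjusted p the share of all features was counted only for the main limma fit, edgeR and DESeq2 (11.5%, 11.7% and 11.6%). The counts of the other settings in this section, the replicate block included, have no such share beside them. Members with no overlap numbered 1, against 16.4% of all features. They numbered 6 without replicate 1 of both genotypes, against 41.1%. With each library left out they numbered 1 to 5, against 22.3% to 33.0%. The members' median of 0.07 ranged from -0.0005 without wild-type replicate 2 to 0.21 without replicate 1 of both genotypes. Of the other pathway genes, 2 passed an adjusted p of 0.05 with DESeq2, and the count of 5 at an unadjusted p became 3 with quantile normalization, 8 with DESeq2, 8 with length correction, 8 with the replicate block and length correction, and 3 to 8 with each library left out. For *Khdrbs3*, limma without these options gave an adjusted p of 0.0891.

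Fold changes near 0 turned sign. *Notch3* was -0.012 with quantile normalization, -0.036 with edgeR, -0.040 with DESeq2 and -0.011 with length correction, with or without the replicate block. With quantile normalization *Jag1* was 0.025, *Lfng* 0.011 and *Hey2* 0.011, and *Hey2* was 0.012 with edgeR and 0.0056 with DESeq2. Without replicate 1 of both genotypes *Lfng* was 0.19, *Hey1* 0.035 and *Hey2* 0.18. Over the libraries left out in turn *Notch3* ran from -0.17 to 0.24, *Jag1* from -0.16 to 0.0042, *Lfng* from -0.22 to 0.15, *Hes1* from -0.012 to 0.22, *Hey1* from -0.10 to 0.025 and *Hey2* from -0.55 to 0.13. The cause was not tested.

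Libraries that share a replicate number deviated together weakly or not at all (correlations 0.098, -0.228 and -0.079 for replicates 1 to 3). The 2 of 6 libraries that correlated best with their own number were those of replicate 1, which also share the higher values of long genes. Wild-type replicate 2 correlated best with dKO replicate 3 (0.194) and wild-type replicate 3 with dKO replicate 2 (0.205). The numbers were therefore not taken as pairs. With the replicate number as a block, 3 members and 7 other pathway genes had an unadjusted p under 0.05, and 0 of either passed the adjusted threshold. The number of libraries limits the precision, and the narrowest 95% interval of a member, that of *Jag2*, ran from -0.33 to 0.15 on the log2 scale.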
